A study of Rattus norvegicus with 48 samples.

Results

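Slices of rat liver cut after bile duct ligation and cultured with Nint were compared with ligated slices given vehicle. The groups were formed from the sample titles: 10 libraries titled BDL_Nint and 10 titled BDL_veh, 20 of the 48 libraries of the series. Bile duct ligation (BDL) blocks the outflow of bile and leads to cholestatic injury and scarring of the liver, and both groups carry it, so the comparison is between 2 sets of injured slices and not between injured and healthy tissue. Both groups came from liver, studied as slices outside the body, and were sequenced from total RNA. The other groups of the series are used below for their levels or, for Sora, in a direct test: ligated slices with Sora (BDL_Sora, n = 10), ligated slices with SB525334 (BDL_SB525334, n = 9) and slices from sham-operated rats with vehicle (Sham_veh, n = 9). The labels give no dose, exposure time, rat strain, age or animal of origin. The p-values therefore speak only to variation among the libraries as sequenced, and part of that may come from handling.

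Nint is read here as nintedanib and Sora as sorafenib, since the labels hold only the short forms. Nintedanib is a small molecule that occupies the ATP site of several receptor tyrosine kinases, chiefly the receptors for platelet-derived growth factor, fibroblast growth factor and vascular endothelial growth factor. In scarring tissue these receptors carry proliferative and migratory signals to fibroblasts and, in liver, to hepatic stellate cells, the main source of collagen-producing myofibroblasts, and to the endothelium. Nintedanib is used as an antifibrotic drug in lung fibrosis. A slice keeps hepatocytes, bile duct cells, stellate cells, endothelium and resident immune cells together, so RNA measured from it is a mixture over all of them, and fewer cells of a type and less RNA per cell cannot be told apart.

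Genes are identified in the files by Ensembl ID, and no symbol could be matched to any of the 32883 IDs. Levels of the kinases that nintedanib binds, of collagens and of the markers of liver cell types are therefore not given here, and the labelled tissue was not checked against markers. The response is described by its size, its direction, its distribution over expression levels and RNA classes, and by the libraries in which it was seen. For 4 genes with the strongest statistics the values are given under their IDs.

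The libraries of both groups were of similar depth and spread. Total counts lay between 12249470 and 20392041 with Nint, against 12723015 to 20629332 with vehicle. The common biological coefficient of variation, edgeR's estimate of the relative spread of a gene between replicates, was 0.151 in BDL_Nint and 0.150 in BDL_veh when each group was fitted alone. The other 3 groups varied more, with 0.185 in BDL_Sora, 0.269 in BDL_SB525334 and 0.224 in Sham_veh.

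A pair of vehicle libraries, numbers 3 and 6, stood apart from the other 8 in their group. In a principal component analysis of the 20 libraries, the first component held 39.1% of the variance and put Nint libraries at 28.7 ± 12.8 and vehicle libraries at -28.7 ± 13.3 (SD, n = 10 each). Vehicle library 3 scored 4.91 and vehicle library 6 scored -15.9 on it, while the other 8 vehicle libraries lay between -38.7 and -32.1. The Nint libraries lay between 12.1 and 50.7, so the groups did not overlap on this axis, but library 3 lay closer to the lowest Nint library than to the other vehicle libraries. The second component held 14.0% and set the same pair apart from all others, at -48.9 for vehicle library 3 and -39.8 for vehicle library 6. Gene counts, named genes and library measures are given with and without these 2 libraries below.

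**Figure D1:**
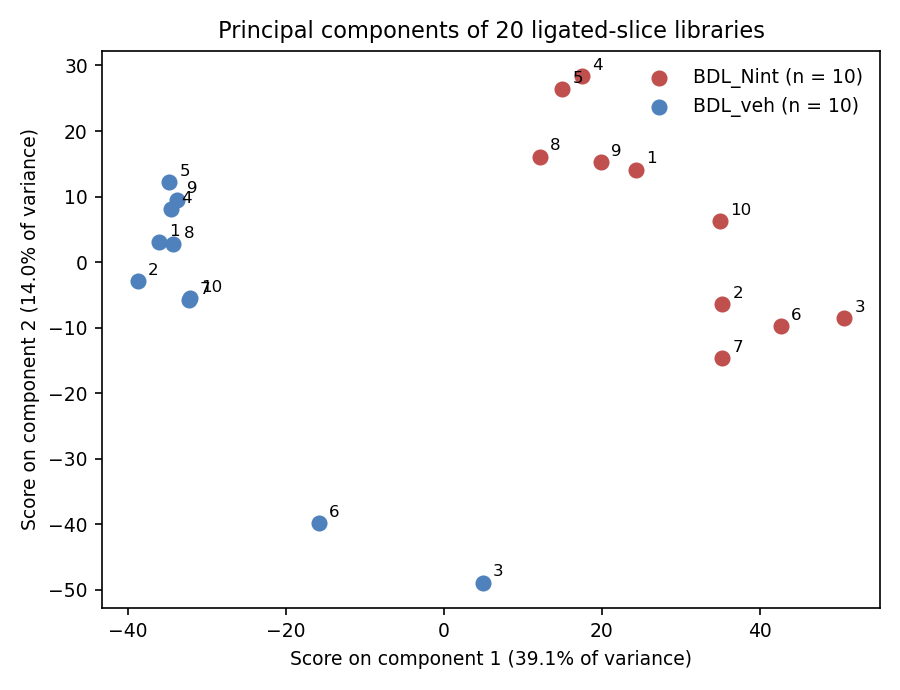
Scores of the 20 ligated-slice libraries on the first 2 principal components of log2 CPM, with library numbers beside the points. Nint libraries lie at 12.1 or more on component 1 and 8 vehicle libraries at -32.1 or less, while vehicle libraries 3 and 6 lie between them and lowest on component 2.

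Nint slices differed from vehicle slices in 24.3% of the genes tested, mostly by small amounts and in both directions. Of 14775 genes tested, 1971 (13.3%) were higher and 1616 (10.9%) lower with Nint than with vehicle, 3587 in all (quasi-likelihood test in edgeR, with p adjusted by Benjamini-Hochberg and called under 0.05). The number called depended on the fit: 5674 of 14139 genes were called when the 2 groups were fitted alone, and 6452 of 14775 by limma-voom with sample weights. Most of the changes were modest: 77.7% of the called genes changed by less than 2-fold, and the median absolute log2 fold change of called genes was 0.52, against a median standard error of 0.10 over all genes tested. A change of 2-fold or more was called in 468 higher (3.17%) and 331 lower genes (2.24%). At 4-fold or more these were 102 and 90 genes, at 8-fold 9 and 14, and at 16-fold 2 and 2. The strongest responses were thus about equally often increases and decreases, although increases led at every threshold up to 4-fold.

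The lead of increases among all calls depended on how the libraries were scaled. TMM factors gave a share of increases of 54.9%, RLE factors one of 47.3%, DESeq2 one of 47.6% and total counts one of 45.9%. The scalings moved the median log2 fold change of all genes only from 0.02 (TMM) to -0.02 (total counts). Without vehicle libraries 3 and 6, 2201 genes were higher and 1524 lower, and increases made up 59.1% of calls. Among genes changed by 2-fold or more the scaling mattered less: with total counts, 464 of the 468 higher and 331 of the 331 lower genes were called in the same direction.

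Calls in both directions were spread over the whole range of expression, and the balance between them differed with the level. Of the 1134 genes with a mean under 1 CPM (counts scaled to a common library size) over the 20 libraries, 11.5% were higher and 5.73% lower with Nint. Genes at 1 to 10 CPM numbered 4120, of which 14.1% were higher and 10.4% lower. The 1611 genes at 100 to 1000 CPM showed the opposite balance, with 12.8% higher and 18.1% lower. Among the 73 most abundant genes, at 1000 CPM or more, 17 were higher (23.3%) and 8 lower (11.0%). These 4 balances kept their direction under TMM, RLE and DESeq2 size factors and under total counts. The largest class, 7837 genes at 10 to 100 CPM, did not: 13.2% were higher and 10.5% lower with TMM factors, but 11.1% and 13.1% with RLE factors and 10.2% and 12.9% with total counts. Without vehicle libraries 3 and 6 the balances were 14.7% higher and 4.85% lower under 1 CPM, 17.7% and 9.78% at 1 to 10, 13.8% and 9.89% at 10 to 100, 12.5% and 17.6% at 100 to 1000, and 27.4% and 9.59% at 1000 or more. Most of the large changes were in scarce genes, whose precision is limited by counting. Of the changes of 2-fold or more, 334 of the 468 increases and 210 of the 331 decreases were in genes under 10 CPM. The classes under 1 and at 1 to 10 CPM held 1134 and 4120 of the 14775 genes tested.

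**Figure D2:**
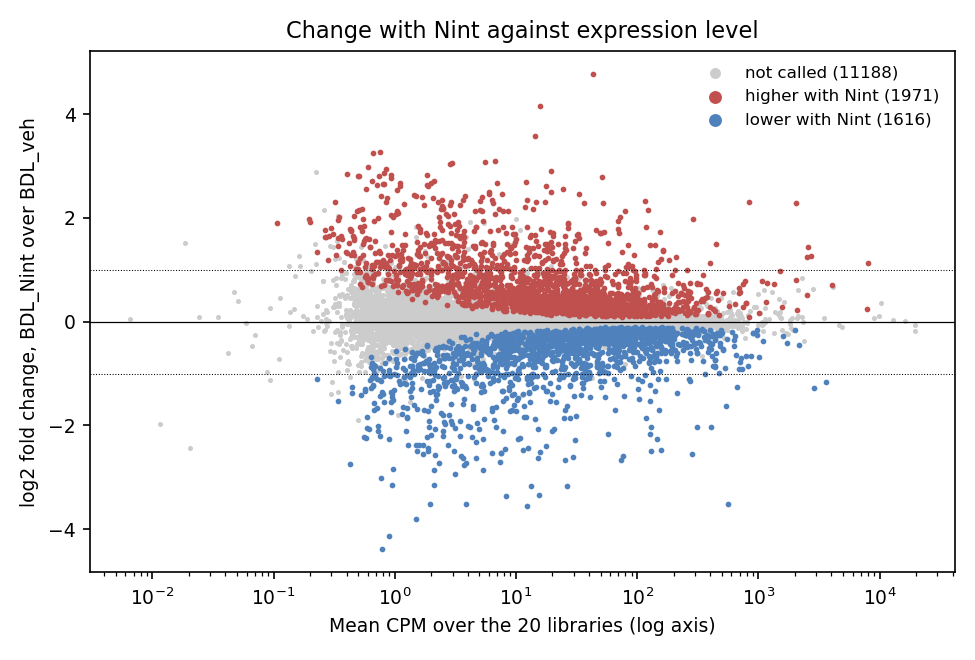
Log2 fold change of each of 14775 genes, BDL_Nint over BDL_veh, against its mean CPM over the 20 libraries on a log axis, with dotted lines at 2-fold. The 1971 higher and 1616 lower genes are coloured, and at 1 CPM or more most of them lie inside the dotted lines. Under 1 CPM most lie outside, with 101 of 130 higher and 50 of 65 lower genes changed by 2-fold or more.

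Most genes called were in the authors' table of expressed protein-coding genes, which also held 13820 of the 14775 genes tested. Of these 13820 genes, 25.2% were called, 1912 higher and 1572 lower. Of the 955 tested genes outside it 10.8% were called, 59 higher and 44 lower. The genes outside were scarcer, with a median of 1.64 CPM, against 20.96 CPM for those inside, and the part of the level in this difference was not tested. At 2-fold or more, 433 genes were higher and 322 lower inside the table, and 35 were higher and 9 lower outside it. Without vehicle libraries 3 and 6, 26.1% were called inside the table (2121 higher, 1478 lower) and 12.6% outside it (75 higher, 45 lower).

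Decreases separated all 20 libraries by group more often than increases did, and this difference rested largely on vehicle libraries 3 and 6. Over all genes tested, every Nint library lay above every vehicle library in 496 genes (3.36%), and every Nint library lay below every vehicle library in 643 (4.35%). Of the 468 genes higher by 2-fold or more, the libraries of the 2 groups did not overlap in 100 (21.4%), whereas of the 331 genes lower by 2-fold or more they did not overlap in 219 (66.2%). Without vehicle libraries 3 and 6 there was no overlap in 306 of the same increases (65.4%) and in 236 of the same decreases (71.3%). At 4-fold or more the shares were 26 of 102 increases (25.5%) and 73 of 90 decreases (81.1%) with all libraries, and 82 (80.4%) and 75 (83.3%) without those 2. Genes that crossed 1 CPM completely were few: 2 were at 1 CPM or more in every Nint library and under 1 CPM in every vehicle library, and 4 showed the opposite.

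Vehicle library 3 was the library that most often closed the gap among increases. It was the highest vehicle library in 324 of the 468 genes higher by 2-fold or more (69.2%), and vehicle library 6 was the highest in 30 (6.41%). Without both of them, Nint lay wholly above vehicle in 1025 genes and wholly below in 862, so complete separations were then more often increases than decreases. With 8 in place of 10 vehicle libraries complete separation is easier to reach in both directions. Among Nint libraries, library 4 was most often the lowest for these 468 genes, in 145 (31.0%). Nint library 3 was most often the highest, in 240 (51.3%), and the fit without it called 399 genes higher by 2-fold or more.

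The position of each library along the response was then measured on genes chosen without it. For each library in turn, the genes called at 2-fold or more in a fit that left that library out were taken, and the library was placed on a scale on which the mean of the other vehicle libraries is 0 and the mean of the other Nint libraries is 1. This used between 716 and 905 genes per library and is a description with no test. Nint libraries had median positions of 0.737 to 1.24, with a group median of 0.934. Vehicle libraries lay between -0.111 and 0.091, except library 3 at 0.539. No vehicle library reached the lowest Nint library.

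The same scale, taken for higher and lower genes apart, showed where vehicle library 3 differed. On genes higher with Nint it lay at 0.841, above Nint libraries 4, 5, 8 and 9, which lay at 0.644, 0.737, 0.653 and 0.787. On genes lower with Nint it lay at 0.019, among the other vehicle libraries. Vehicle library 6 lay at 0.284 on the higher genes and at -0.229, the lowest of all libraries, on the lower genes. Nint libraries also differed more from each other on the higher genes, with positions of 0.644 to 1.49, than on the lower genes, with positions of 0.862 to 1.14.

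**Figure D3:**
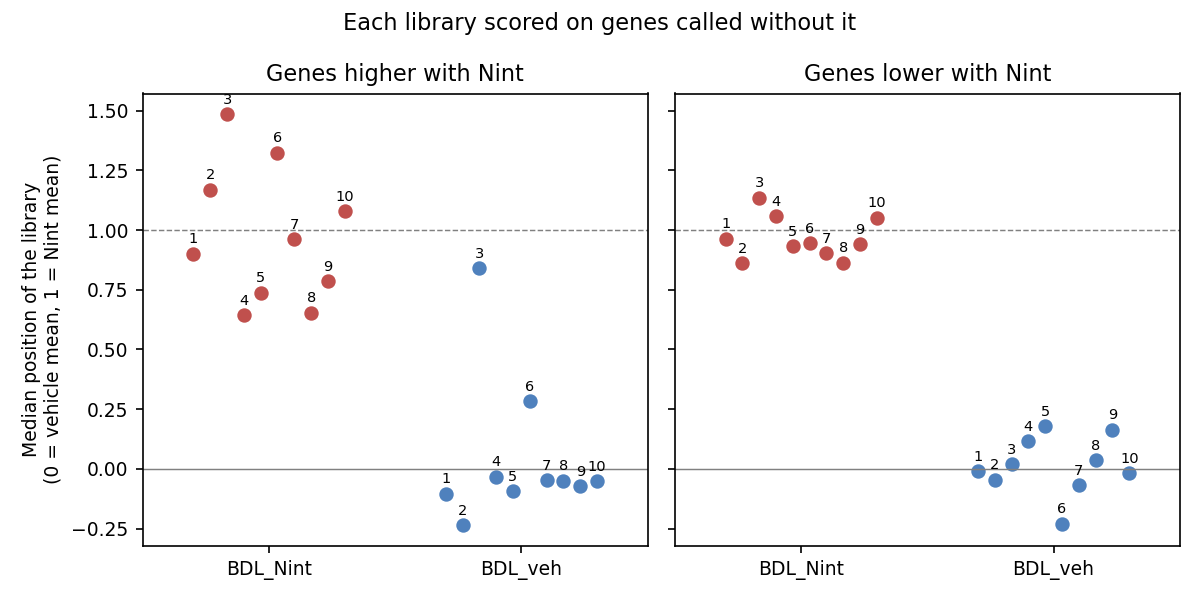
Median position of each library on genes called at 2-fold or more without it, where 0 is the mean of the other vehicle libraries and 1 that of the other Nint libraries; genes higher with Nint are on the left and genes lower with Nint on the right. Vehicle library 3 lies among the Nint libraries on the left panel, at 0.841, and among the vehicle libraries on the right panel, at 0.019.

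Leaving out both vehicle libraries at once gave the same contrast. Genes outside the main filter were left out of this measure, 4 of 658 higher and 1 of 300 lower ones. Over the 654 genes then called higher by 2-fold or more, library 3 lay at a median of 0.910 and library 6 at 0.447 of the way from the other 8 vehicle libraries to Nint. Library 3 was past the midpoint in 512 of these genes (78.3%) and library 6 in 299 (45.7%). Over the 299 genes called lower, library 3 lay at 0.046 and library 6 at -0.149, and they were past the midpoint in 38 (12.7%) and 20 genes (6.69%). Vehicle library 3 thus lay near Nint for most genes that were higher with Nint and near vehicle for most that were lower, while library 6 lay about midway for the higher genes only.

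Position codes were unevenly spread over the 2 groups. The sample descriptions hold a code of a letter and a number, read here as a row and a column, and it is not said what the code marks. Of the Nint libraries 5 were in columns 1 and 2, which hold no vehicle library, and of the vehicle libraries 3 were in column 3, which holds no Nint library. With position column as a factor over all libraries, 465 genes were higher and 327 lower by 2-fold or more, close to the 468 and 331 without it. Within columns 4, 5 and 6, which hold 5 Nint and 7 vehicle libraries, 1683 genes were higher and 1728 lower with Nint, and at 2-fold or more 292 and 339. This fit also leaves out 8 libraries and the other groups, and the 2 groups alone, with all 20 libraries, gave 379 higher and 318 lower genes of that size. Of the original 331 decreases of 2-fold or more, 311 were called in the same direction there, and of the 468 increases 288 were. Both vehicle libraries 3 and 6 are in these columns. When they were left out as well, leaving 5 Nint and 5 vehicle libraries, 358 of the 468 increases and 294 of the 331 decreases were called in the same direction, and 514 genes were higher and 304 lower by 2-fold or more.

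The named genes, 4 in all, were taken by their statistics: in each direction the gene with the largest fold change and, of the remaining genes, the one with the smallest p, among genes with a mean of at least 1 CPM over the 20 libraries. ENSRNOG00000051970 had the largest increase, and also the smallest p of all increases. Its level was 51.0 CPM in the lowest, 79.2 in the median and 147.7 in the highest Nint library, against 1.83, 2.40 and 9.07 CPM with vehicle. The groups did not overlap, and the vehicle maximum belonged to library 3, with no other vehicle library above 2.94 CPM. The means were 82.8 ± 31.0 CPM with Nint and 3.02 ± 2.15 CPM with vehicle (SD, n = 10 each), which is 4.77 on the log2 scale (SE 0.23, adjusted p = 7.19e-21 in edgeR). The change was 5.16 without vehicle libraries 3 and 6. Its level in the other groups was 109.0 ± 25.8 CPM with Sora and 34.9 ± 5.42 CPM with SB525334, against 0.580 ± 0.218 CPM in sham slices.

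ENSRNOG00000020560 had the smallest p of the increases after ENSRNOG00000051970 and was among the most abundant genes of these slices. It reached 2256 CPM in the lowest, 3317 in the median and 4386 in the highest Nint library, against 437.7, 677.2 and 992.6 CPM with vehicle. The groups did not overlap, and vehicle libraries 3 and 6 were not the only high ones of their group, since library 1 was at 918.5 CPM. The log2 fold change was 2.29 (SE 0.13, adjusted p = 1.36e-18 in edgeR), and 2.42 without vehicle libraries 3 and 6. The means were 3385 ± 711.0 CPM with Nint and 691.2 ± 180.3 CPM with vehicle (SD, n = 10 each), while the sham level was 33.4 ± 6.88 CPM (n = 9). Levels with the other compounds were also above vehicle, at 3757 ± 541.7 CPM with Sora and 2336 ± 280.0 CPM with SB525334. A second gene followed it at a nearly fixed ratio of 0.331 to 0.462 over all 48 libraries. Such genes may share reads in the counting, so the split of the counts between them is uncertain.

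ENSRNOG00000014320 had the smallest p of the decreases. Its level was 63.8 CPM in the lowest, 78.5 in the median and 109.4 in the highest Nint library, against 378.5, 465.7 and 695.7 CPM with vehicle. The groups did not overlap, and vehicle library 3 was the lowest of its group while library 6 was the highest. It was lower by a log2 value of -2.55 (SE 0.17, adjusted p = 3.49e-16 in edgeR), and it was -2.51 without vehicle libraries 3 and 6. This gene was at 7.48 ± 2.67 CPM in sham slices (n = 9), so that with Nint, at 83.0 ± 16.9 CPM (n = 10), it was still above the sham level in every library. Its level was 88.6 ± 20.3 CPM with Sora and 62.2 ± 22.1 CPM with SB525334.

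ENSRNOG00000058340 had the largest decrease among genes with a mean of at least 1 CPM, but this rested partly on the vehicle libraries that stood apart. It was filtered out when the 2 groups were fitted alone. It was a scarce transcript, with 30 counts over the 10 Nint libraries and 473 over the 10 vehicle libraries. Its level was 0.047 CPM in the lowest, 0.167 in the median and 0.582 in the highest Nint library, against 0.116, 1.74 and 12.0 CPM with vehicle. The groups overlapped: vehicle library 3 held 12.0 CPM and library 6 held 6.15 CPM, while no other vehicle library was above 2.38 CPM. Its log2 change was -3.81 (SE 0.63, adjusted p = 6.61e-06 in edgeR) and -2.67 without those libraries. In this gene vehicle libraries 3 and 6 lay away from Nint, not toward it. The other groups were at 0.377 ± 0.304 CPM with Sora, 1.24 ± 1.42 CPM with SB525334 and 0.286 ± 0.159 CPM in sham slices.

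**Figure D4:**
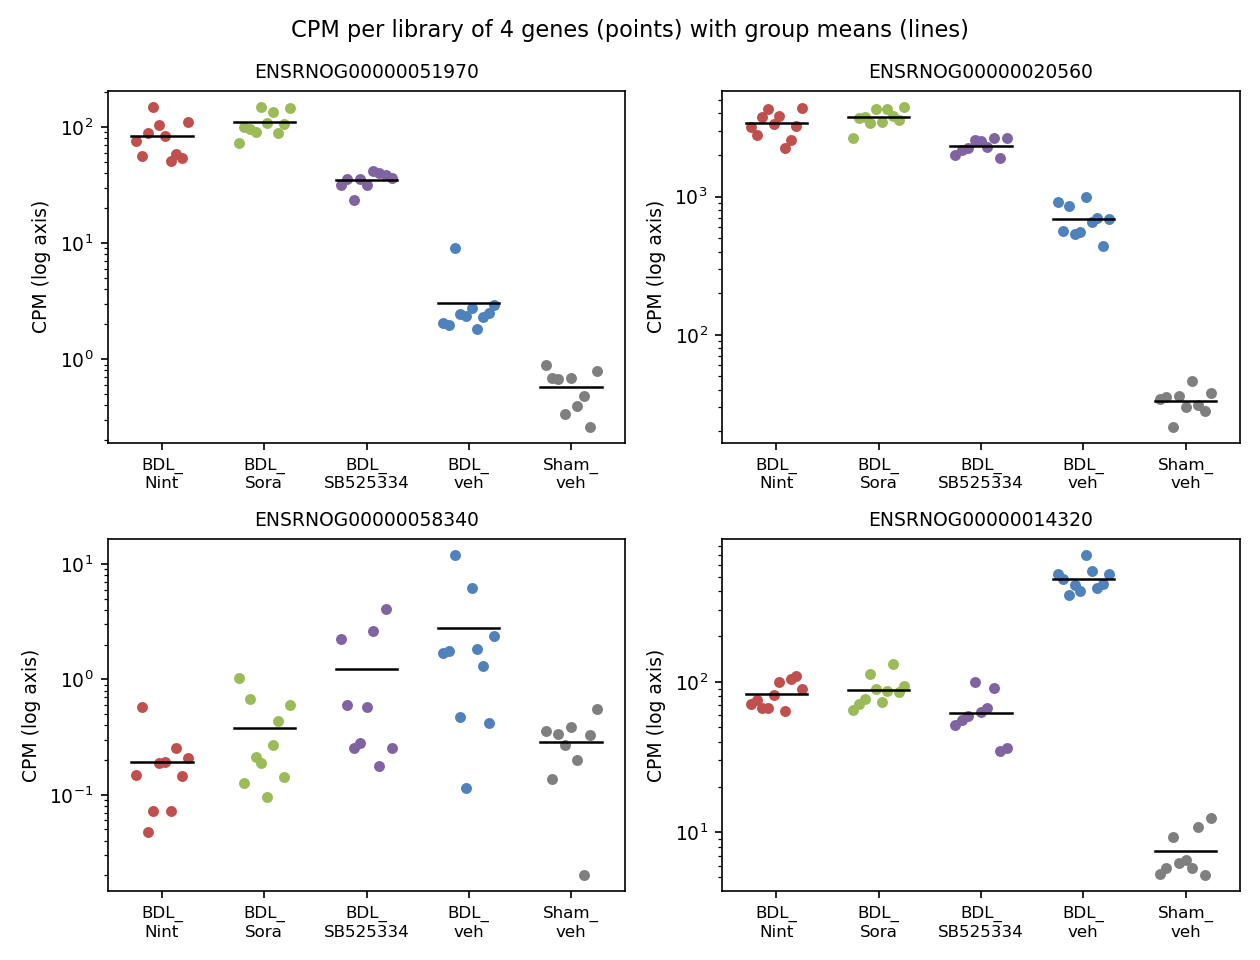
CPM of 4 genes on log axes, with 1 point per library and a line at the group mean, for the ligated groups with Nint, Sora, SB525334 and vehicle and for sham slices with vehicle; the sham library at 0 CPM for ENSRNOG00000058340 is drawn at the foot of its panel. Nint and vehicle points do not overlap in 3 genes and overlap in ENSRNOG00000058340.

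None of the 4 genes passed the test between Nint and Sora, the other multikinase inhibitor. The log2 differences, Nint over Sora, were -0.40 (SE 0.18, adjusted p = 0.272 in edgeR) for ENSRNOG00000051970, -0.15 (SE 0.12, adjusted p = 0.606) for ENSRNOG00000020560, -0.87 (SE 0.73, adjusted p = 0.616) for ENSRNOG00000058340 and -0.09 (SE 0.16, adjusted p = 0.831) for ENSRNOG00000014320. Missing the threshold does not show that the compounds act alike, and the labels give no doses to match. Over all genes 343 (2.32%) differed between Nint and Sora, but this count was unstable, from 161 with position column as a factor and 195 without Nint library 7 to 3695 with limma-voom. For the 90 genes that Nint lowered by 4-fold or more, the median level over genes was 1.25 CPM with Nint, 1.60 with Sora, 2.38 with SB525334, 6.72 with vehicle and 0.862 in sham slices. For the 102 genes that it raised by 4-fold or more, the median was 4.12 CPM with Nint, 4.20 with Sora, 3.10 with SB525334, 0.883 with vehicle and 2.43 in sham slices. These genes were chosen for a gap between Nint and vehicle, and a comparison of another group with vehicle would reuse those vehicle libraries. The levels are therefore given side by side as a description.

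The composition of the libraries by RNA class, read from the authors' quality metrics, changed as well. Of 35 library measures, 11 (31.4%) differed between Nint and vehicle (permutation test of the difference in means, 100000 draws, two-sided, adjusted over 70 tests). Classes of small nuclear and nucleolar RNA made up a smaller share of mapped alignments with Nint. The snRNA class, the RNA of the spliceosome, held 0.0166 ± 0.000829% with Nint and 0.0190 ± 0.00120% with vehicle (adjusted permutation p = 0.00042). The scaRNA class, guides for the modification of spliceosomal RNA, held 0.0411 ± 0.00247% with Nint and 0.0452 ± 0.00195% with vehicle (adjusted permutation p = 0.00572). The snoRNA class, guides for the modification of ribosomal RNA, held 0.0952 ± 0.00490% with Nint and 0.106 ± 0.00789% with vehicle (adjusted permutation p = 0.00897).

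Annotated miRNA genes, processed transcripts, ribozymes and rRNA were lower as well. The miRNA class held 0.0140 ± 0.00105% with Nint and 0.0174 ± 0.00170% with vehicle, 19.4% less (adjusted permutation p = 0.00063). Median inserts over whole libraries, of 150 to 161 bases with Nint and 149 to 159 with vehicle, are longer than a mature miRNA. Insert lengths of this class alone are not given, so it is not read here as a measure of mature miRNAs. The processed_transcript class, transcripts of gene loci without an open reading frame, held 0.153 ± 0.00887% with Nint and 0.183 ± 0.00924% with vehicle (adjusted permutation p = 0.00042). Ribozyme genes, catalytic RNAs such as that of RNase P, were at 0.275 ± 0.0128% with Nint and 0.304 ± 0.0253% with vehicle (adjusted permutation p = 0.00747). The rRNA class held 0.00401 ± 0.000445% with Nint and 0.00502 ± 0.000771% with vehicle, 20.1% less (adjusted permutation p = 0.00814). The unprocessed_pseudogene class was 3.97% less (adjusted permutation p = 0.0114).

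Fewer measures were higher with Nint. Mitochondrial tRNA, which serves translation inside mitochondria, held 0.0161 ± 0.000976% with Nint and 0.0140 ± 0.000747% with vehicle (adjusted permutation p = 0.00063). The 100 most abundant genes held 29.8 ± 1.62% of counts with Nint and 27.8 ± 1.01% with vehicle (adjusted permutation p = 0.00953). The transcribed_unprocessed_pseudogene class was the third, on 15 to 109 alignments per library. The shares of lincRNA, intronic, exonic and protein-coding alignments did not pass the test, with adjusted permutation p of 0.489, 0.399, 0.399 and 0.128. In all 35 measures the libraries of the 2 groups overlapped, and a share says nothing of absolute amounts.

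Without vehicle libraries 3 and 6, each of these 11 measures stayed under an adjusted p of 0.05. Within position columns 4, 5 and 6 the snRNA, scaRNA, snoRNA, miRNA, processed_transcript, ribozyme, mitochondrial tRNA and transcribed_unprocessed_pseudogene shares still passed, and the other 3 did not (adjusted p = 0.112 for rRNA, 0.140 for unprocessed_pseudogene and 0.302 for the 100 most abundant genes, exact permutation test, n = 5 and 7). With both restrictions, at 5 and 5 libraries, all 11 kept their direction and none passed, with p adjusted over the 35 measures from 0.0556 to 0.189 (exact permutation test). The smallest p that 5 against 5 libraries allow is 0.00794 before adjustment, so a call was hard to reach there, and 17 of the 35 were under an unadjusted p of 0.05. The differences, Nint minus vehicle, were of similar size: -0.00428 percentage points for miRNA, against -0.00337 with all 20 libraries, -0.00293 against -0.00239 for snRNA, and -0.0249 against -0.0294 for processed_transcript. Of the 35 measures 17 (48.6%) differed between Nint and Sora. Among them lincRNA held 0.604 ± 0.0362% with Nint and 0.514 ± 0.0249% with Sora (adjusted permutation p = 0.00042), and ribozyme genes held 0.275 ± 0.0128% with Nint and 0.303 ± 0.0128% with Sora (adjusted permutation p = 0.00042). The miRNA share did not pass between the 2 compounds, at 0.0140 ± 0.00105% with Nint and 0.0147 ± 0.00121% with Sora (adjusted permutation p = 0.310).

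**Figure D5:**
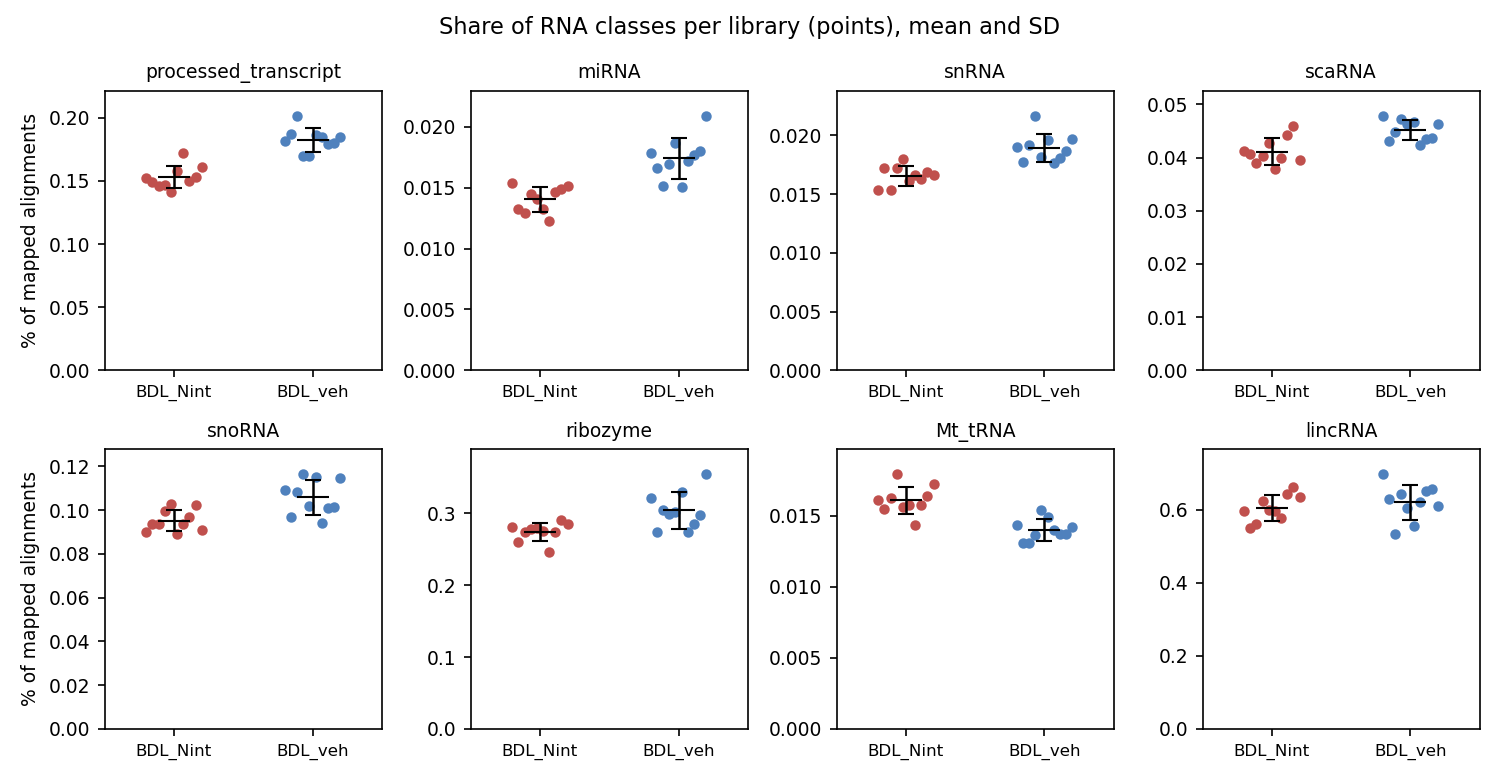
Share of mapped alignments by RNA class in each of the 10 BDL_Nint and 10 BDL_veh libraries, with the mean and SD of each group. The processed_transcript, miRNA, snRNA, scaRNA, snoRNA and ribozyme shares are lower and the Mt_tRNA share is higher with Nint, while the lincRNA shares, at 0.604% with Nint and 0.620% with vehicle, did not pass the test.

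Part of the gene calls held under each choice of processing tried. Of the 3587 calls, 1850 (51.6%) were made in the same direction under all 15 alternatives and with each single library left out, 922 higher and 928 lower. Genes that a filter left untested counted as lost. No gene called here was called in the opposite direction under any of them. The most calls were lost within position columns 4, 5 and 6, where 2747 (76.6%) were kept, and 3243 (90.4%) were kept without vehicle libraries 3 and 6.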

How the data were processed

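RNA-seq libraries of ligated slices with Nint (10) and vehicle (10) were compared within a fit of all 48 libraries of the series. Per the submitters' processing notes, RSEM and edgeR were used with build Rnor_6.0. The sources used here name no aligner, annotation release or strand setting of the counting, so overlapping and near-identical genes are uncertain. In the authors' metrics about 98.9% of read pairs lay antisense to the gene. The deposited table holds RSEM expected counts for 32883 genes, not normalised; 8.02% were not whole (tolerance 1e-06) and all were rounded. The authors deposited log2 CPM values for 14418 genes, described by the table's name as expressed and protein coding, and 172 quality metrics of mixed kinds; alignments per class were divided here by mapped alignments.

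Genes were filtered with filterByExpr by group, which left 14775, and TMM scaling was applied. In edgeR 4.0.16 (R 4.3.3) a robust quasi-likelihood fit had 1 coefficient per group and no covariate; SE came from the F statistic. All tests were two-sided. CPM used TMM-scaled library sizes, and principal components used log2 CPM (prior count 2). Permutation tests of library measures ran in Python 3.11.15, with every arrangement enumerated when n was under 10. Total counts of the 20 libraries were 12249470 to 20629332, so the precision of scarce genes is limited by counting. Counts of any pair of libraries of a group differed beyond sampling noise (90 pairs, chi-square per degree of freedom of 3.77 or more).

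The members, lists and tests were chosen with earlier results of these data known. The gene lists, target kinases, cell type markers and promoter motifs planned need symbols; the reference table (assembly GRCr8) pairs none of its 47357 genes with an Ensembl ID, so 0 of 32883 matched and no list was applied. Named genes are, in each direction, the one with the largest fold change and the one with the smallest p of the rest, at a mean of 1 CPM or more. Alternatives were RLE factors, total counts, DESeq2 1.42.0 on all genes with a count, 2 filters, the 2 groups alone, limma-voom and limma on the authors' log2 CPM (limma 3.58.1), a replicate block, position column, columns 4, 5 and 6 alone, a quality component, leaving out vehicle libraries 3 and 6, the 50 most abundant genes out of the scaling, and each library left out; columns 4, 5 and 6 without vehicle libraries 3 and 6, and the alternatives for library measures, were added after seeing the data.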

Additional observations from a re-analysis of the deposited data

Results flagged for a closer look

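Of 38 groups of library values examined, 8 had a highest or lowest library separated from the rest by more than Dixon's 95% critical value. Its nominal rate of about 1 in 20 holds for independent, normally distributed values. Some groups here are related to each other or come from genes picked for their change, so no excess over chance can be read from the 8. Vehicle library 3 was flagged most often. It was at 4.91 on the first principal component, next to -15.9 for the nearest vehicle library, and at 0.539 on the scale of the Nint response, next to 0.091. It also held 9.07 CPM of ENSRNOG00000051970, next to 2.94 CPM, and 12.0 CPM of ENSRNOG00000058340, next to 6.15 CPM. Its total count, 15298826, was inside the range of its group. Vehicle library 6 held 695.7 CPM of ENSRNOG00000014320, next to 542.9 CPM. Vehicle library 4 had an snRNA share of 0.0216%, next to 0.0197%. Nint library 2 held 0.582 CPM of ENSRNOG00000058340, next to 0.253 CPM, and Nint library 3 had the largest total of its group, 20392041 counts, next to 16262422.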

How the results depend on the processing

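The 4 named genes kept their direction and passed the test under each alternative that gave a value, with log2 fold changes of 4.64 to 5.23 for ENSRNOG00000051970, 2.23 to 2.42 for ENSRNOG00000020560, -4.73 to -2.67 for ENSRNOG00000058340 and -2.70 to -2.47 for ENSRNOG00000014320. ENSRNOG00000058340 was filtered out in 4 of 35 alternatives, among them the fit of the 2 groups alone. Counts moved by more than 1.5 times in few settings: limma-voom called 3609 higher and 2843 lower genes, and the 2 groups alone called 2797 lower genes. With the replicate number as a block in that fit 3018 were higher and 2928 lower. Replicate numbers follow the order of the position codes. Same-numbered libraries correlated at -0.109 to 0.430 (over 0.1 in 5 of 10 pairs), and 2 of 10 Nint libraries were closest to their own number. The highest correlations were at numbers 3 (0.430) and 6 (0.270), followed by number 5 (0.241). Vehicle libraries 3 and 6 are those that stood apart, and Nint libraries 3 and 6 scored highest on the first component, at 50.7 and 42.6. The labels do not say whether same-numbered libraries share an animal, and these values cannot decide it. At 2-fold or more, a filter of 5 CPM left 274 higher and 193 lower genes, by testing fewer genes, and columns 4, 5 and 6 gave 292 higher. For the other moves the cause was not tested. Between Nint and Sora, against 343 genes, DESeq2 called 594, limma-voom 3695, limma on the authors' log2 CPM 171 and position column as a factor 161. Leaving out single libraries gave 1742 to 2136 higher and 1502 to 1594 lower genes, 399 to 591 and 307 to 339 at 2-fold or more, 195 to 350 between Nint and Sora (195 without Nint library 7, 212 without Nint library 1), and 11 to 14 library measures. With columns 4, 5 and 6 and no vehicle libraries 3 and 6, 0 library measures passed (permutation test; 17 at an unadjusted p under 0.05; at 5 against 5 the smallest exact p is 0.00794 before adjustment), while all 11 differences kept their direction, the miRNA one at -0.00428 percentage points, against -0.00337 with all libraries. With 10 libraries a group, scarce genes are limited by counting.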
